A study of Mus musculus with 8 samples.

Results

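Gpr6, Gpr52, Gpr139, Gpr149, Gpr83 and Gpr155 are 6 genes of the orphan G protein-coupled receptor type whose RNA is found in the striatum. They were chosen by name, with earlier results of these data known, as 6 of the 32285 genes in the count matrices. They were described in all 18 annotated clusters of nuclei and in all 8 strains. The study profiled nuclear RNA, together with open chromatin, in nuclei from frozen mouse striatum with the 10x Genomics Multiome assay. It asked how the genetic background of the mouse shapes the striatum. The mice were 12 weeks old and came from 8 inbred strains, with 4 mice per strain and 32 in all. WSB/EiJ, PWK/PhJ and CAST/EiJ are strains derived from wild mice. The other 5 are the laboratory strains A/J, C57BL/6, 129S1/SvImJ, NZO/HlLtJ and NOD/ShiLtJ. Each of 4 batches held 1 mouse of every strain, and the nuclei of its 8 mice were mixed before they were loaded. A mouse was therefore known by its batch and by the strain that the authors read from its sequence variants. The sources write C57BL/6J in one place and C57BL/6NJ in another, so the substrain of C57BL/6 is not named here. Every batch held both sexes, and the sex of a single mouse was not used.

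An orphan receptor is a member of the G protein-coupled family whose natural ligand is unknown or still debated. In the striatum such receptors matter because the main cell type, the medium spiny projection neuron, comes as 2 populations that read dopamine in opposite ways. Neurons with the D1 receptor (Drd1) form the direct pathway and raise cyclic AMP when dopamine binds. Neurons with the D2 receptor (Drd2) form the indirect pathway and lower it, and a receptor that couples to Gs in those cells works against Drd2. Gpr6 signals through Gs without any added ligand, and its close relatives are Gpr3 and Gpr12. Gpr52 also couples to Gs and is known from Drd2 neurons. Gpr139 responds to the amino acids L-tryptophan and L-phenylalanine, couples to Gq and opposes signalling by the mu opioid receptor. Gpr149 has no accepted ligand. Gpr83 is a proposed receptor of PEN, a peptide cut from the precursor proSAAS. Gpr155, also called LYCHOS, sits in the lysosomal membrane, senses cholesterol and signals to the growth regulator mTORC1.

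In build GRCm38.p6, Gpr6 lies on chromosome 10 from 41069977 to 41072290. Gpr52 lies on chromosome 1 from 160574717 to 160579704, inside the much longer Rabgap1l, which runs from 160219174 to 160793476. Gpr139 lies on chromosome 7 from 119140747 to 119184538. Gpr149 lies on chromosome 3 from 62529430 to 62605440, and its end overlaps the long noncoding RNA Gm34048. Gpr83 lies on chromosome 9 from 14859880 to 14870789. Gpr155 lies on chromosome 2 from 73341506 to 73386521 and holds the long noncoding RNA Gm13709. Whether the counting used the strand is not given in the sources used here, so reads of Gpr52, Gpr149 and Gpr155 could in part belong to these overlapping genes. Rabgap1l was counted at 391.5 ± 34.6 CPM (counts scaled to the total of the library) in Drd1+ nuclei and 713 ± 57.3 in Drd2+ nuclei (SD, n = 32). Over the 32 mice, its Pearson r with Gpr52 was 0.40 and 0.25 in those clusters, given as a description. Of the 291715 accessible regions in the authors' list, 1 overlapped Gpr6, 4 Gpr52, 8 Gpr139, 3 each Gpr149 and Gpr83, and 15 Gpr155. Gm13709 was counted at only 3.62 ± 1.69 and 3.25 ± 1.22 CPM in the same clusters (SD, n = 32). Its r with Gpr155 over the mice was 0.50 in Drd1+ and -0.08 in Drd2+ neurons, and its lowest strain mean in Drd1+ neurons was that of CAST/EiJ, 2.06 CPM. Its part in the Gpr155 level was not tested.

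The promoter windows of 3 of the 6 genes were in the RefSeq table of that build, and each was covered by a peak in the authors' list of accessible regions. They are shown because the chromatin data touch these stretches around a start site. Each window runs from 250 bases before a start site to 50 bases after it, 5′ to 3′ on the strand of the gene. The start site is the one on which the RefSeq table builds the window, at 41072290 for Gpr6, 14860210 for Gpr83 and 73386480 for Gpr155. For Gpr6 it is the outer end of the gene given above, while for Gpr83 and Gpr155 it lies 330 and 41 bases inside the gene, so the window of Gpr83 is wholly within the gene's span. Capitals mark matches on either strand to 5 motifs. They are the cyclic AMP response element (CRE, TGACGTCA), its shorter core (TGACG, or CGTCA on the other strand), the TATA box (TATAAA), the CCAAT box (CCAAT) and the GC box (GGGCGG). On the other strand the CCAAT box reads ATTGG, and every full CRE also holds the core on both strands. The window of Gpr6 (chr10:41072241-41072540, minus strand) lies within the peak from 41071716 to 41072715. The window of Gpr83 (chr9:14859960-14860259, plus strand) lies within the peak from 14859732 to 14860731. The window of Gpr155 (chr2:73386431-73386730, minus strand) lies within the peak from 73386067 to 73387066.
Gpr6: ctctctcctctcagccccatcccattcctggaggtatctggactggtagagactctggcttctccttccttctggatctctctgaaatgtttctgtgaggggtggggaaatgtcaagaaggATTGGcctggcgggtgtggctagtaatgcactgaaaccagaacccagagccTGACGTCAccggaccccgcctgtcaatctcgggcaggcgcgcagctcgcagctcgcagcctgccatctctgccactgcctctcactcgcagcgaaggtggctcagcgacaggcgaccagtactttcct
Gpr83: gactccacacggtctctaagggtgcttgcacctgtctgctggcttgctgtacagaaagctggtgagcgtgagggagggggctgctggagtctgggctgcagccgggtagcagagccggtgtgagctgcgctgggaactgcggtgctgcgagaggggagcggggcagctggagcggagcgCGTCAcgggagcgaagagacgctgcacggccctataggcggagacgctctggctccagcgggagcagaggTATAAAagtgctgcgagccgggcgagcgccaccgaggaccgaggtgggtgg
Gpr155: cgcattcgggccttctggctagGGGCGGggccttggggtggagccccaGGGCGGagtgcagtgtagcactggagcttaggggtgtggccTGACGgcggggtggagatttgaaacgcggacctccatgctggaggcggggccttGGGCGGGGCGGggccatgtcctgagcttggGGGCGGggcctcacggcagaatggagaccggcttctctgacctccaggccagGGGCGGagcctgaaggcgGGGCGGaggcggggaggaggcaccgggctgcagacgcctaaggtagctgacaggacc

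Only the window of Gpr6 held a full CRE among these 3, its first base 78 bases before that start site, and 1.79% of the 32851 promoters in the table hold one. It also held a CCAAT box on the other strand, as 37.4% of promoters do. The window of Gpr83 held a TATA box beginning 1 base before the start site of its window, found in 13.6% of promoters, and the core CGTCA. The window of Gpr155 held 7 GC boxes, of which 2 overlap, and the core TGACG. A GC box is in 35.7% of promoters and the core in 20.8%. GC content was 58.7% for Gpr6, 67.0% for Gpr83 and 70.3% for Gpr155, against a median of 52.7% over the table. A match of letters is a description of the window and was tied to no value below.

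Of the 18 clusters, 14 had at least 12 mice with 10 or more nuclei each, and the mean and SD over mice are given for those. The 55672 annotated nuclei split into 944 to 4416 per mouse. The nuclei of a batch held 43538698 to 77698312 counts, with a median of 3232 to 4931 counts of unique molecular identifiers (UMIs) per nucleus. Batch 3 was the shallowest. 1517 barcode sequences occurred in 2 or more batches and took in 5.47% of the nuclei. Levels are in CPM of the summed nuclei of 1 mouse in 1 cluster, over totals scaled by the TMM method. CPM is not corrected for gene length, so levels are compared within a gene only. Summed over all mice, the Drd1+ cluster held Drd1 at 219 CPM and Drd2 at 11.9, and the Drd2+ cluster held Drd2 at 437 CPM and Drd1 at 10.2. The cluster Drd1+ neuron_2 held Drd1 at 184 CPM with Otof at 220.3, Tshz1 at 417 and Casz1 at 132, markers of the eccentric type of projection neuron. The Nxph1+ interneurons held Nxph1 at 2703 CPM. The cluster named mural cells held Vtn at 2692 CPM and Rgs5 at 403, but also Pde10a at 2311, Drd2 at 165, Adora2a at 82.0 and Drd1 at 69.1, all projection neuron genes. In each cluster, fewer nuclei carrying a gene and less RNA per nucleus cannot be told apart in a summed level.

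Gpr6 and Gpr52, the Gs-coupled receptors, were highest in Drd2+ neurons. The clusters were made from the RNA of the same nuclei, so the levels by cluster are a description with no test. Gpr6 stood at 73.4 ± 18.9 CPM in Drd2+ neurons (SD, n = 32), from 46.3 to 115 CPM over the mice. In Drd1+ neurons it stood at 6.10 ± 1.86 CPM, from 2.69 to 9.78. The ranges over mice did not overlap. Next in order came the mural cells with 31.8 ± 38.5 CPM (SD, n = 20), a cluster that held 48 counts in its 390 nuclei. Gpr6 was higher in Drd2+ neurons than in mural cells in 15 of the 20 mice that had both. Macrophages stood at 18.01 ± 12.8 CPM, oligodendrocytes at 13.3 ± 6.04 and astrocytes at 11.9 ± 7.04 (SD, n = 32 each). These lower clusters overlapped one another widely, and neighbours in their order changed places from mouse to mouse.

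The share of nuclei with a Gpr6 UMI was 33.1% ± 4.59 in Drd2+ neurons and 3.75% ± 1.11 in Drd1+ neurons (SD, n = 32). It was 2.28% ± 1.08 in oligodendrocytes, which should lack the receptor. The median depth was 5953 UMIs in Drd2+ neurons, 6505 in Drd1+ neurons and 1640 in oligodendrocytes. With every nucleus thinned to 1000 UMIs, the shares became 6.97% in Drd2+ neurons, 0.512% in Drd1+ neurons and 1.35% in oligodendrocytes. The share in Drd1+ neurons was thus below that in oligodendrocytes at equal depth, and above it as deposited. Whether the Gpr6 counts in Drd1+ neurons are background or expression was not tested. The thinning left out 10 nuclei of each neuron cluster and 986 oligodendrocytes for lack of depth. No correction for free RNA was made.

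Gpr52 followed the same contrast. It stood at 22.7 ± 5.26 CPM in Drd2+ neurons, from 12.7 to 36.6, against 1.45 ± 0.88 CPM in Drd1+ neurons, from 0 to 3.74 (SD, n = 32). The mural cells came next in order with 5.89 ± 13.6 CPM, a cluster with 9 counts in all, below Drd2+ neurons in 18 of 20 mice. Drd1+ neuron_2 stood at 3.54 CPM. In oligodendrocytes the mean was 0.99 CPM. The share of nuclei with a Gpr52 UMI was 12.5% ± 2.75 in Drd2+ neurons, 0.955% ± 0.600 in Drd1+ neurons and 0.174% ± 0.246 in oligodendrocytes (SD, n = 32). At 1000 UMIs per nucleus these shares were 2.40%, 0.138% and 0.0700%, and the share in astrocytes was 0.152%. Drd1+ neurons were therefore within the range of the glia at equal depth. The overlap with Rabgap1l, which was also higher in Drd2+ than in Drd1+ neurons, stands beside this contrast, and its part in the result was not tested.

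Gpr139, the receptor for aromatic amino acids, had the opposite pattern. It stood at 19.2 ± 8.59 CPM in Drd1+ neurons, from 3.54 to 35.6, against 1.78 ± 1.48 CPM in Drd2+ neurons, from 0 to 4.51 (SD, n = 32). The ranges overlapped through 1 mouse at 3.54 CPM in Drd1+ neurons. Gpr139 was hardly found in the eccentric Drd1+ neuron_2 cluster, with 1.02 CPM from 7 counts. Ependyma came next after Drd1+ neurons with 8.02 ± 12.5 CPM (SD, n = 12), a cluster with 8 counts in all. Nxph1+ interneurons stood at 7.16 ± 9.79 CPM (SD, n = 32) on 42 counts. The share of Drd1+ neurons with a Gpr139 UMI was 9.59% ± 4.35, against 0.976% ± 0.851 in Drd2+ neurons and 0.120% ± 0.158 in oligodendrocytes (SD, n = 32). Thinned to 1000 UMIs, the shares were 1.78%, 0.125% and 0.0930%. At that depth Drd2+ neurons were close to oligodendrocytes, but summed over all mice their level was higher, 2.00 against 0.85 CPM. The exact Poisson intervals of counting error, 1.71 to 2.34 and 0.50 to 1.34, did not overlap. They leave out the spread between mice, and the interval of macrophages, 0.71 to 3.62, covered the value of Drd2+ neurons.

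Gpr149 was highest in the eccentric neurons. It stood at 269 ± 91.0 CPM in Drd1+ neuron_2, from 132 to 574, and at 77.5 ± 26.1 CPM in Drd2+ neurons, from 51.0 to 157 (SD, n = 32). All 32 mice had the higher level in Drd1+ neuron_2. Nxph1+ interneurons followed with 41.1 ± 37.1 CPM and Drd1+ neurons with 37.4 ± 17.3 CPM (SD, n = 32), and 15 of 32 mice had the higher level in the interneurons, so their order is not settled. The 165 Sst+ interneurons of all mice summed to 31 counts or 40.5 CPM, with an exact Poisson interval of 27.5 to 57.5 that covers counting error only. Oligodendrocytes stood at 0.75 CPM and astrocytes at 0.86. A Gpr149 UMI was found in 47.5% ± 10.8 of nuclei in Drd1+ neuron_2, 25.7% ± 7.13 in Drd2+ neurons and 15.2% ± 6.22 in Drd1+ neurons (SD, n = 32). In oligodendrocytes the share was 0.133% ± 0.203. At 1000 UMIs these 4 shares were 18.6%, 7.46%, 3.85% and 0.0651%, in the same order.

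Among the clusters given a mean over mice, Gpr83, the proposed PEN receptor, was highest in Nxph1+ interneurons. It stood at 118 ± 61.4 CPM in Nxph1+ interneurons, from 21.3 to 267 (SD, n = 32), on 527 counts. The 120 Chat+ interneurons, the cholinergic cells of the striatum, summed to 77 counts or 79.9 CPM, with an exact Poisson interval of 63.0 to 99.8. Summed in the same way, Nxph1+ interneurons stood at 93.6 CPM (interval 85.8 to 102), so the intervals overlapped. A Gpr83 UMI was in 43.3% of all Chat+ and 24.8% of all Nxph1+ nuclei, at median depths of 8370.5 and 4280.5 UMIs. Only 3 mice had 10 or more Chat+ nuclei, with 42.4, 37.9 and 136 CPM on 4, 4 and 5 counts, so the place of the Chat+ cluster in the order is not settled. The 165 Sst+ interneurons held only 6 counts or 7.84 CPM (interval 2.88 to 17.1), below both main projection neuron clusters. Drd1+ neuron_2 followed with 58.5 ± 19.7 CPM, Drd1+ neurons with 34.9 ± 11.6 and Drd2+ neurons with 30.6 ± 9.62 (SD, n = 32). The order held in most mice: Nxph1+ interneurons were above Drd1+ neuron_2 in 27 of 32, Drd1+ neuron_2 above Drd1+ neurons in 28 of 32, and Drd1+ above Drd2+ neurons in 27 of 32 (26 of 32 on the log2 scale used below, where the nearly even batch 2 mouse of C57BL/6 changes sides). Oligodendrocytes stood at 5.28 CPM and astrocytes at 6.14. A Gpr83 UMI was in 28.3% ± 12.2 of Nxph1+ interneurons and 18.3% ± 5.86 of Drd1+ neurons (SD, n = 32), against 0.906% ± 0.626 of oligodendrocytes. At 1000 UMIs these shares were 10.7%, 3.30% and 0.609%.

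Gpr155, the lysosomal cholesterol sensor, was the member found most broadly. It stood at 181 ± 43.8 CPM in Drd1+ neurons, 172 ± 44.8 in macrophages and 144 ± 25.3 in Drd2+ neurons (SD, n = 32). Drd1+ neurons were above macrophages in 20 of 32 mice and macrophages above Drd2+ neurons in 23 of 32. Endothelium stood at 121 ± 50.6 CPM (SD, n = 29), oligodendrocytes at 87.0 ± 13.2, Drd1+ neuron_2 at 86.8 ± 29.8 and astrocytes at 31.5 ± 14.8 (SD, n = 32). Astrocytes were thus the low end among the large clusters, and eccentric neurons were below the common Drd1+ neurons. At 1000 UMIs per nucleus, a Gpr155 UMI was in 15.2% of Drd1+ neurons, 14.96% of macrophages, 13.1% of Drd2+ neurons, 8.09% of oligodendrocytes and 3.00% of astrocytes. These shares differed between the glial types at equal depth.

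**Figure D1:**
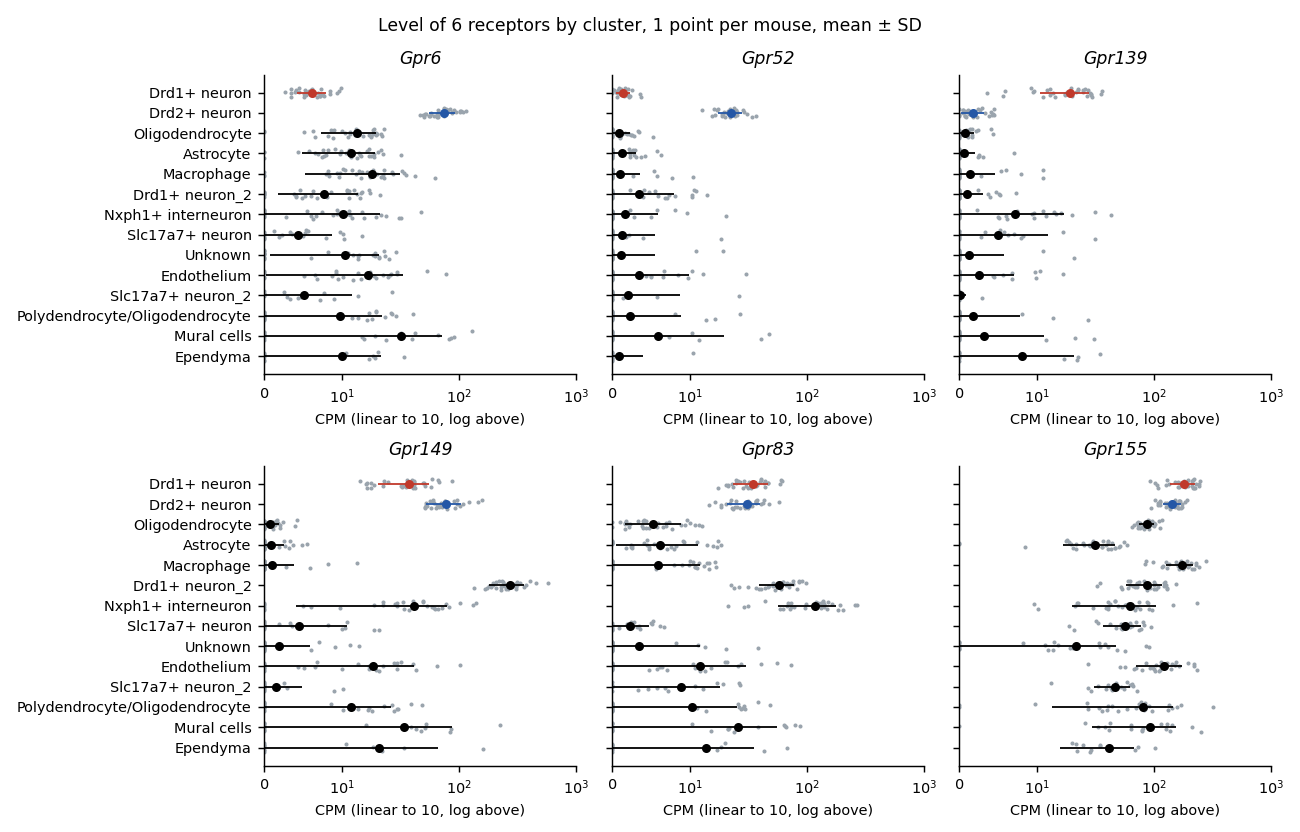
Level of each receptor in CPM (linear to 10, logarithmic above) by cluster, with 1 grey point per mouse and the mean ± SD (bars end at 0 where they would pass it) for clusters with at least 12 mice of 10 nuclei. Gpr6 and Gpr52 peak in Drd2+ neurons (blue), Gpr139 in Drd1+ neurons (red), Gpr149 in Drd1+ neuron_2 and Gpr83 in Nxph1+ interneurons, while Gpr155 is spread over most clusters.

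Comparing Drd2+ with Drd1+ neurons inside each mouse removes differences between mice, and it sorted the 6 receptors into 3 kinds. On the log2 scale of CPM with a prior count of 2, Gpr6 was higher in Drd2+ neurons by 3.48 ± 0.58 and Gpr52 by 3.56 ± 0.60 (SD, n = 32), each in 32 of 32 mice. Drd1+ neurons of 2 mice held 0 counts of Gpr52 and Drd2+ neurons of 4 mice 0 counts of Gpr139, so those ratios depend on the prior count. Gpr139 had a Drd2+ over Drd1+ ratio of -3.09 ± 0.58 and was higher in Drd1+ neurons in 32 of 32 mice. Gpr149 was higher in Drd2+ neurons by 1.14 ± 0.55, again in 32 of 32 mice, with mice from 0.08 to 2.39. Gpr83 and Gpr155 differed less between the clusters and were higher in Drd1+ neurons in most mice, with ratios of -0.15 ± 0.24 and -0.28 ± 0.23 (SD, n = 32). Gpr83 was higher in Drd2+ neurons in 6 of 32 mice and Gpr155 in 5 of 32.

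**Figure D2:**
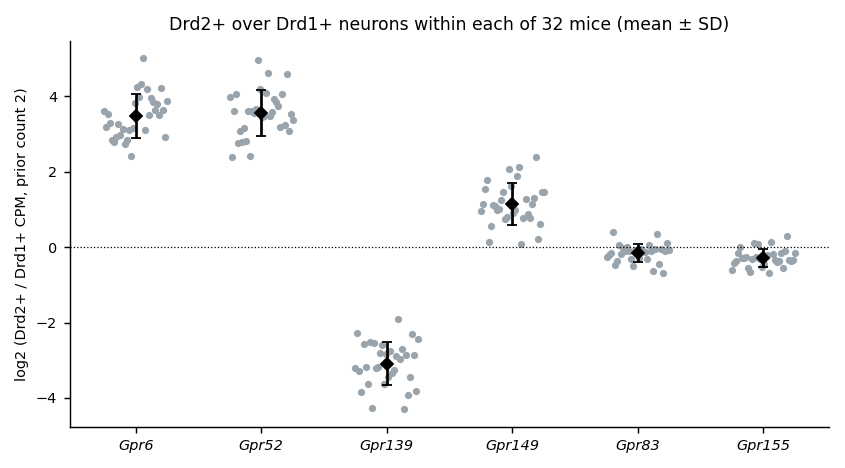
Log2 ratio of the level in Drd2+ neurons to that in Drd1+ neurons, taken within a mouse, for the 6 receptors, with 1 grey point for each of 32 mice and the mean ± SD in black. Gpr6, Gpr52 and Gpr149 lie above 0 and Gpr139 below 0 in all 32 mice, whereas Gpr83 and Gpr155 lie closer to 0, below it in 26 and 27 of 32 mice.

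The counted level of the members tested in Drd1+ and Drd2+ neurons differed between strains. The call of Gpr6 in Drd1+ neurons was at the threshold (adjusted p = 0.0498, edgeR) and was lost in 7 of 14 other settings. The builds named for all strains are mm10 and GRCm38, while the strains differ in sequence variants. The part of read alignment in the strain differences given here and below was not tested. In Drd2+ neurons 6 of 6 members passed edgeR's quasi-likelihood test of strain with Benjamini-Hochberg adjustment over all genes (adjusted p under 0.05), where 55.9% of 12799 tested genes passed. Gpr139 lay near the count filter there and was tested in 2 of the 4 fits that leave out a batch. In Drd1+ neurons 5 of 5 passed, where 61.7% of 13431 genes passed, and Gpr52 had too few counts to be tested. The call of Gpr139 in Drd1+ neurons was lost in 3 of 14 other settings, without batch 1, 2 or 3 (adjusted p up to 0.179, edgeR), and with batches left out in turn as few as 3 of the 5 passed. In Drd2+ neurons the call of Gpr6 was lost in 3 of 14 (adjusted p up to 0.913) and that of Gpr83 in 1 of 14 (adjusted p = 0.0536, edgeR). With that many genes called, the count sets these receptors apart from no other gene. In Drd1+ neuron_2, 2 of 3 tested members passed, Gpr149 and Gpr155, where 17.3% of 5544 genes did. Those calls were lost in 5 of 14 other settings for Gpr149 and in 4 of 14 for Gpr155 (adjusted p up to 0.261 for each, edgeR). Gpr83 did not pass there (adjusted p = 0.915, edgeR). No member passed in the other clusters with enough mice, in the main edgeR fit or by DESeq2. In Nxph1+ interneurons 0 of 3 passed (1.53% of all genes), although Gpr83 had an unadjusted p of 0.00465 and an adjusted p of 0.129. Gpr83 passed there only with lowly counted genes kept in the edgeR fit (adjusted p = 0.00501). In oligodendrocytes 0 of 2 passed (34.8% of all genes), and 0 of 1 passed in astrocytes (21.5%), macrophages (24.8%) and endothelium (3.23%). In those 4 clusters no member had an unadjusted p under 0.05. In the polydendrocyte cluster no member had enough counts to be tested (1.24% of its genes passed).

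The quantities that follow are each strain against the mean of the other 7, and pairs of strains, from the same edgeR fit with adjustment over all genes per contrast. In Drd1+ neurons 15 contrasts were called over the 5 members, 8 each, where 20.4% of all gene contrasts were called. In Drd2+ neurons 14 were called over 6 members, where 17.7% were. Of the 28 pairs of strains per gene, 43 were called over the members in Drd1+ neurons, where 20.1% of all were called. In Drd2+ neurons 52 were called, where 17.6% of all were. These counts moved with the fit. With a batch left out as few as 7 contrasts were called in Drd1+ neurons (without batch 3), and as few as 6 contrasts and 20 pairs in Drd2+ neurons (without batch 2; 7 and 29 without batch 1). Without the batch in the fit (no replicate block), Drd2+ neurons gave 8 contrasts and 30 pairs. With lowly counted genes kept, Drd1+ neurons gave 23 contrasts and 67 pairs. The shares over all genes are those of the first fit, so these counts are not read against them. CAST/EiJ was called lower for 3 of 5 members in Drd1+ neurons (15.9% of all genes) and for 2 of 6 in Drd2+ neurons (13.3%), where it was also called higher for Gpr6 and Gpr52. PWK/PhJ was also called lower for Gpr155 there, and for Gpr139 with a call (adjusted p = 0.0407, edgeR) kept in 0 of the 2 fits that leave out a batch and test the gene. In the order of strains for a member, neighbouring strains were called apart only once in 11 orders, for Gpr155 between CAST/EiJ and PWK/PhJ in Drd1+ neurons. The other strain differences concern strains further apart in the order.

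Gpr155 varied most plainly with strain. In Drd1+ neurons the 4 CAST/EiJ mice stood at 108, 105, 101 and 92.6 CPM in batches 1 to 4, and all 4 were below every one of the other 28 mice. PWK/PhJ came next with 185, 135, 152 and 129.9 CPM. A/J had the highest mean, 218 ± 36.8 CPM, against 102 ± 6.77 in CAST/EiJ (SD, n = 4). CAST/EiJ was lower than the other 7 strains by a log2 difference of -0.90 ± 0.11 (SE; adjusted p = 1.51e-07, edgeR). It was also below PWK/PhJ alone, the neighbour in the order, with an adjusted p of 0.0019 (edgeR). A/J, 129S1/SvImJ and WSB/EiJ were called higher than the rest, by 0.36 ± 0.09, 0.34 ± 0.09 and 0.31 ± 0.09 on the log2 scale (SE; adjusted p = 0.00605, 0.0147 and 0.0218, edgeR), each kept in 3 of the 4 fits that leave out a batch. PWK/PhJ was called lower by -0.26 ± 0.10 (adjusted p = 0.0417, edgeR), a call kept in 1 of those 4 fits and lost without the batch 4 mouse of NOD/ShiLtJ (adjusted p = 0.0551, edgeR). The summed level of the 5 eccentric neuron markers in the Drd1+ cluster was highest in CAST/EiJ, at 83.1 CPM. NOD/ShiLtJ came next at 79.0 CPM, with Gpr155 at 186 ± 22.6 CPM (SD, n = 4). The part of these markers in the Gpr155 differences was not tested.

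In Drd2+ neurons Gpr155 was again lowest in CAST/EiJ, with 94.8, 112, 108 and 112 CPM in batches 1 to 4. PWK/PhJ stood at 150.4, 108, 113 and 101 CPM, so these strains overlapped. The mean was 107 ± 8.18 CPM in CAST/EiJ and 167 ± 19.6 in WSB/EiJ, the highest (SD, n = 4). CAST/EiJ differed from the other 7 by -0.47 ± 0.08 on the log2 scale (SE; adjusted p = 9.16e-06, edgeR) and PWK/PhJ by -0.30 ± 0.08 (adjusted p = 0.00278, edgeR; kept in 3 of the 4 fits that leave out a batch). In Drd1+ neuron_2 Gpr155 ran from 56.6 ± 17.1 CPM in PWK/PhJ and 62.8 ± 11.5 in CAST/EiJ to 124 ± 21.96 in NOD/ShiLtJ (SD, n = 4; strain term adjusted p = 0.021, edgeR). The usual excess of Gpr155 in Drd1+ over Drd2+ neurons was absent from the mean of CAST/EiJ, whose ratio was 0.09 ± 0.19 on the log2 scale (SD, n = 4), while the means of the other 7 strains ran from -0.46 to -0.20. This difference in the ratio between strains did not pass the interaction test (adjusted p = 0.0751, edgeR). Of 11 other settings, 8 did not pass it either. It passed without the batch 4 mouse of 129S1/SvImJ (adjusted p = 0.00109, edgeR) and without batch 4 (adjusted p = 0.00217, edgeR). With lowly counted genes kept it passed as well (adjusted p = 3.12e-07, edgeR). The mouse was chosen after seeing the data and most settings did not pass, so these 3 are no support for a difference.

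Gpr149 split the strains in Drd1+ neurons. CAST/EiJ stood at 16.3, 18.7, 17.7 and 14.2 CPM in batches 1 to 4, and C57BL/6 at 17.6, 22.1, 16.3 and 22.8. NOD/ShiLtJ stood at 57.6, 38.9, 49.8 and 66.2 CPM and NZO/HlLtJ at 34.8, 41.1, 41.1 and 39.0. The CAST/EiJ and C57BL/6 mice overlapped each other and the lowest PWK/PhJ mouse at 15.8 CPM, and they lay below all mice of the other 5 strains. CAST/EiJ differed from the other 7 strains by -1.16 ± 0.23 on the log2 scale (SE; adjusted p = 0.000357, edgeR), and C57BL/6 by -0.91 ± 0.22 (adjusted p = 0.00551, edgeR). The call of CAST/EiJ was kept in all 4 fits that leave out a batch and that of C57BL/6 in 2. NOD/ShiLtJ was higher by 0.70 ± 0.18 (adjusted p = 0.0103, edgeR), and A/J by 0.51 ± 0.17 (adjusted p = 0.0389, edgeR; kept in 1 of those 4 fits, and 0.0893 without the batch in the fit). The call of NOD/ShiLtJ was kept in 3 of those 4 and lost without its batch 4 mouse (adjusted p = 0.0571, edgeR). The summed level of the 5 eccentric neuron markers in the Drd1+ cluster was 72.4 to 93.9 CPM over the NOD/ShiLtJ mice and 75.1 to 98.4 over the CAST/EiJ mice, the strains with the highest and the lowest Gpr149. Its means in the other 6 strains were 46.0 to 60.3 CPM. In the Drd2+ cluster the mean of that sum was 57.3 CPM in NOD/ShiLtJ, 77.1 in CAST/EiJ and 40.7 to 62.6 in the other 6 strains. None of the 5 markers was at 0 in either cluster, and their part in the Gpr149 differences and in the interaction below was not tested.

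One mouse carried much of the 129S1/SvImJ level of Gpr149. In Drd1+ neurons its mice stood at 40.5, 33.2, 39.8 and 87.3 CPM in batches 1 to 4, and in Drd2+ neurons at 77.6, 65.5, 74.4 and 145 CPM. The batch 4 mouse stood apart in both clusters, and it also had the highest level of its strain in Drd1+ neuron_2, 449 CPM against 185 to 264. With it, 129S1/SvImJ was higher in Drd1+ neurons by 0.57 ± 0.17 on the log2 scale (SE; adjusted p = 0.0335, edgeR). Without it the difference was 0.27 (adjusted p = 0.399, edgeR), and WSB/EiJ was called higher in Drd1+ neurons by 0.51 (adjusted p = 0.0183, edgeR). The mouse was chosen after seeing the data, so this call of WSB/EiJ is no support for a difference.

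In Drd2+ neurons the strains took another order for Gpr149. WSB/EiJ was highest with 67.6, 108, 120.4 and 157 CPM in batches 1 to 4, and C57BL/6 lowest with 51.1, 53.1, 61.0 and 56.4. A/J stood evenly at 91.6, 101, 96.2 and 90.6 CPM. WSB/EiJ differed from the other 7 by 0.63 ± 0.13 on the log2 scale (SE; adjusted p = 0.00147, edgeR) and kept the call in all 11 other settings run. C57BL/6 differed by -0.49 ± 0.16 (adjusted p = 0.0419, edgeR), a call kept in 0 of the 4 fits that leave out a batch and lost without the batch in the fit (adjusted p = 0.0846). CAST/EiJ, the lowest strain in Drd1+ neurons, was here in the middle at 65.7 ± 13.6 CPM (SD, n = 4), and its difference of -0.25 ± 0.15 did not pass (adjusted p = 0.250, edgeR). In Drd1+ neuron_2 Gpr149 ran from 184 ± 40.5 CPM in PWK/PhJ to 341 ± 29.6 in A/J (SD, n = 4; strain term adjusted p = 0.0387, edgeR).

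**Figure D3:**
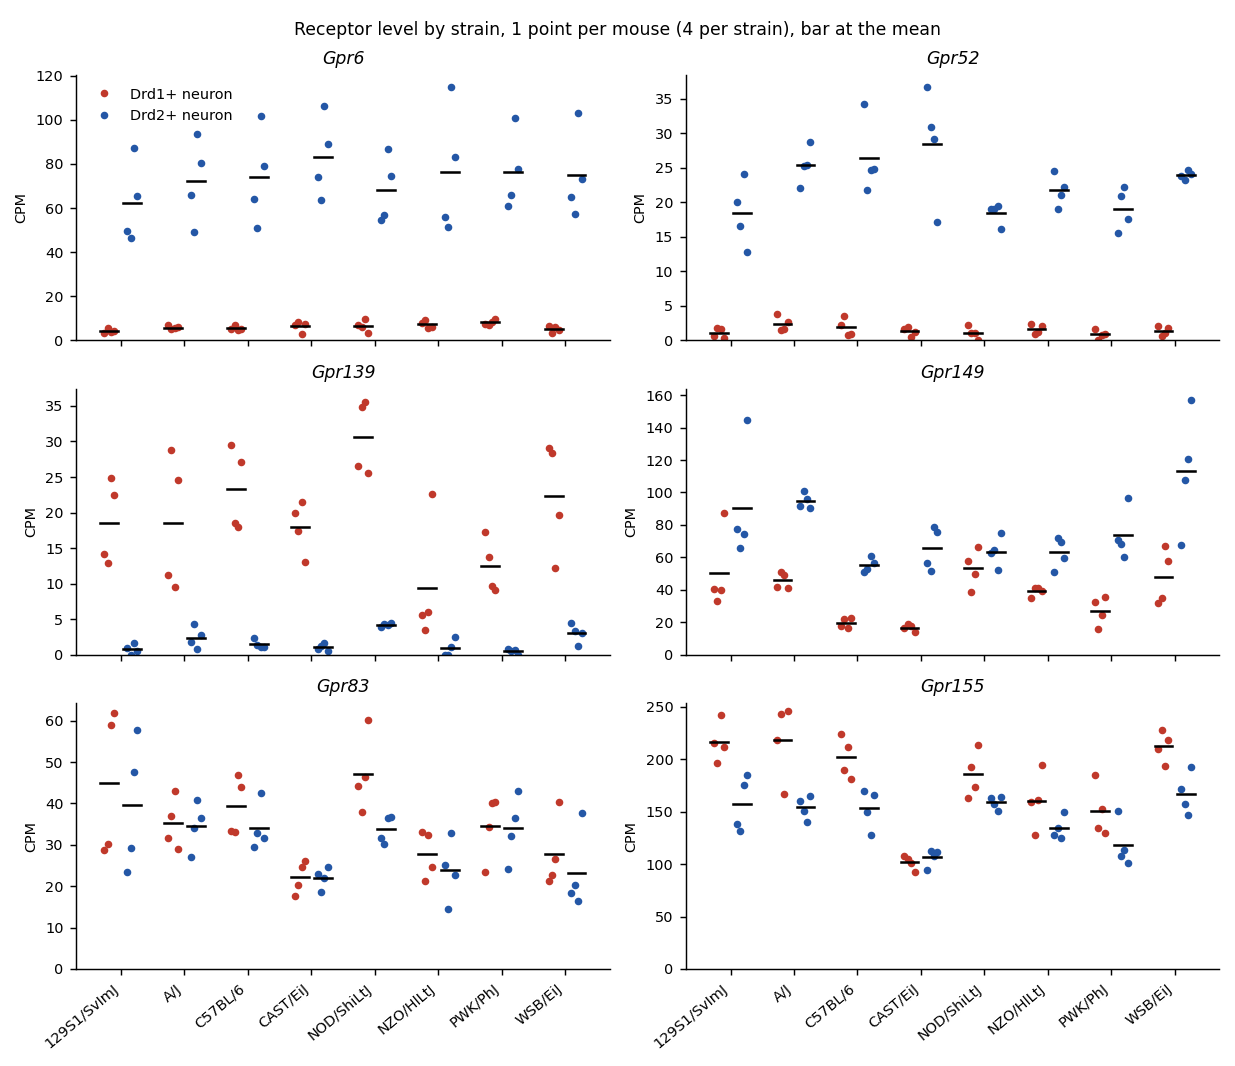
Level of each receptor in CPM by strain, with Drd1+ neurons in red and Drd2+ neurons in blue, 1 point per mouse in the order of batches 1 to 4 and a bar at the mean of 4 mice. Gpr155 in CAST/EiJ Drd1+ neurons (92.6 to 108 CPM) lies below all 28 other mice, and Gpr149 in Drd1+ neurons is low in CAST/EiJ and C57BL/6.

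Whether strain acted differently in the 2 pathways was tested as an interaction of strain and cluster within mice. It was called for 2 of 6 members, Gpr149 and Gpr139, where 4.58% of 13791 genes were called. For Gpr149 (adjusted p = 1.48e-13, edgeR) the excess in Drd2+ neurons was least in NOD/ShiLtJ, 0.29 ± 0.30 on the log2 scale, and largest in CAST/EiJ, 1.94 ± 0.41 (SD, n = 4). The NOD/ShiLtJ mice stood at 0.13, 0.73, 0.08 and 0.21, and the CAST/EiJ mice at 1.78, 1.45, 2.14 and 2.39, with no overlap. NZO/HlLtJ stood at 0.69 ± 0.12, 129S1/SvImJ at 0.90 ± 0.10, A/J at 1.07 ± 0.09, WSB/EiJ at 1.26 ± 0.34, PWK/PhJ at 1.49 ± 0.42 and C57BL/6 at 1.49 ± 0.29 (SD, n = 4). The batch 4 mouse of 129S1/SvImJ, high in both clusters, had the lowest ratio of its strain, 0.77 against 0.91 to 0.99 in the other 3. The call was kept in every setting run except that without the mouse as a block, where the adjusted p was 0.216 (edgeR).

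For Gpr139 the interaction was weaker (adjusted p = 0.00856, edgeR), and it was lost in 4 of 11 other settings, 3 of which leave out a batch. The Drd2+ over Drd1+ ratio was -2.61 ± 0.26 in A/J (SD, n = 4). CAST/EiJ and C57BL/6 stood at -3.43, and NOD/ShiLtJ and WSB/EiJ at -2.64 and -2.62. In 2 mice of NZO/HlLtJ and 1 each of 129S1/SvImJ and PWK/PhJ, Drd2+ neurons held 0 counts of Gpr139, so the ratios of these 3 strains depend on the prior count and are not ranked. Gpr139 stood at 1.78 CPM in Drd2+ neurons and 0.78 CPM in oligodendrocytes, and the ratio rests on few counts, 163 over all Drd2+ neurons. Gpr83 (adjusted p = 0.291), Gpr52 (adjusted p = 0.917) and Gpr6 (adjusted p = 0.963) did not pass the interaction test in edgeR.

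**Figure D4:**
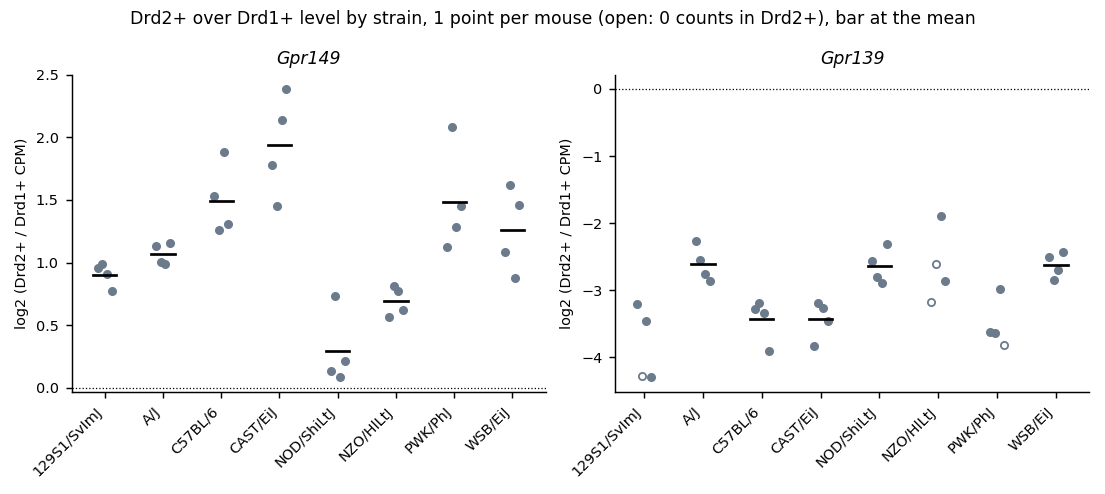
Log2 ratio of the level in Drd2+ over Drd1+ neurons by strain for Gpr149 (left) and Gpr139 (right), with 1 point per mouse and strains in alphabetical order. Open points are mice with 0 counts in Drd2+ neurons, and a bar marks the mean of 4 mice in strains with no such mouse. For Gpr149 the means lie between 0.29 (NOD/ShiLtJ) and 1.94 (CAST/EiJ), and for Gpr139 those of the 5 strains with a bar lie between -3.43 and -2.61.

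Gpr83 was lowest in CAST/EiJ in both projection neuron clusters. In Drd1+ neurons the CAST/EiJ mice stood at 17.6, 20.3, 24.7 and 26.0 CPM in batches 1 to 4 and the NOD/ShiLtJ mice at 44.3, 37.9, 46.4 and 60.1. These strains, the lowest and the highest by mean, did not overlap in Drd1+ neurons. CAST/EiJ differed from the other 7 by -0.71 ± 0.16 on the log2 scale (SE; adjusted p = 0.000652, edgeR) and NOD/ShiLtJ by 0.55 ± 0.13 (adjusted p = 0.0046, edgeR). The NOD/ShiLtJ call was lost without its batch 4 mouse (adjusted p = 0.0526, edgeR). 129S1/SvImJ stood at 28.6, 30.2, 59.1 and 61.9 CPM, low in batches 1 and 2 and high in batches 3 and 4. Its difference of 0.40 ± 0.13 (adjusted p = 0.0368, edgeR) became 0.27 without the batch 4 mouse (adjusted p = 0.285, edgeR), and it was not called without the batch in the fit (adjusted p = 0.122). Over all strains the Drd1+ level was also lower in batches 1 and 2, at 29.2 ± 8.45 and 29.6 ± 7.22 CPM, than in batches 3 and 4, at 39.9 ± 11.5 and 40.8 ± 14.4 (SD, n = 8).

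In Drd2+ neurons Gpr83 ran from 22.1 ± 2.57 CPM in CAST/EiJ to 39.5 ± 16.0 in 129S1/SvImJ (SD, n = 4; highest against lowest strain adjusted p = 0.00363, edgeR). The adjustment does not cover the choice of that pair. CAST/EiJ differed from the other 7 by -0.48 ± 0.16 on the log2 scale (adjusted p = 0.0211, edgeR), kept in 2 of the 4 fits that leave out a batch and lost without the batch in the fit (adjusted p = 0.0836). In Nxph1+ interneurons, with the highest Gpr83 mean among clusters of at least 12 mice, the strain means ran from 70.3 ± 44.9 CPM in PWK/PhJ to 184 ± 65.0 in 129S1/SvImJ (SD, n = 4). The mice of a strain spread widely there, on 40 to 88 counts per strain. The strain term passed only when lowly counted genes were kept in the fit (adjusted p = 0.00501, edgeR).

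Gpr139 in Drd1+ neurons was highest in NOD/ShiLtJ, with 26.6, 34.9, 35.6 and 25.6 CPM in batches 1 to 4. NZO/HlLtJ was lowest, with 5.63, 3.54, 5.96 and 22.6 CPM. Its batch 4 mouse lay among those of the other strains, while its other 3 mice were below all mice of the other 7 strains. NZO/HlLtJ differed from the other 7 by -1.17 ± 0.37 on the log2 scale (SE; adjusted p = 0.03, edgeR). That call was kept in 1 of the 4 fits that leave out a batch. Without its batch 4 mouse the difference was -1.92 (adjusted p = 0.00177, edgeR), and NOD/ShiLtJ was called higher as well, by 0.96 (adjusted p = 0.0116, edgeR). That mouse was chosen after seeing the data, where it stood apart in this gene and cluster. The fit without it is therefore no support for these strain differences. In Drd2+ neurons, at a much lower level, Gpr139 was 3.90, 4.35, 4.13 and 4.51 CPM in NOD/ShiLtJ and 0.758, 0.466, 0.599 and 0 CPM in PWK/PhJ. NOD/ShiLtJ was called higher there by 1.76 ± 0.37 on the log2 scale (SE; adjusted p = 0.000535, edgeR), and WSB/EiJ by 1.33 ± 0.38 (adjusted p = 0.0103, edgeR). A/J was called higher by 1.02 ± 0.36 (adjusted p = 0.049, edgeR), kept in 4 of 9 other settings. These strains had means of 4.22, 3.02 and 2.38 CPM, and the others at most 1.50. The expression filter was set by strain group, and the gene was tested in 2 of the 4 fits that leave out a batch. It may have passed the filter through these strains, so the calls lend no independent support. NOD/ShiLtJ had the highest mean in both clusters.

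Gpr52 in Drd2+ neurons differed modestly between strains. CAST/EiJ was highest with 36.6, 30.8, 29.2 and 17.2 CPM in batches 1 to 4, and 129S1/SvImJ lowest with 20.1, 16.6, 24.1 and 12.7. NOD/ShiLtJ stood almost as low at 19.0, 19.1, 19.5 and 16.1, and WSB/EiJ evenly at 23.8, 23.2, 24.7 and 24.1. CAST/EiJ overlapped other strains: its batch 4 mouse was low, and the batch 1 mouse of C57BL/6, at 34.2 CPM, was above 3 of its mice. CAST/EiJ was called higher than the other 7 by 0.41 ± 0.13 on the log2 scale (SE; adjusted p = 0.01, edgeR), kept in 2 of the 4 fits that leave out a batch. The pair of CAST/EiJ and 129S1/SvImJ, the highest and the lowest strain, had an adjusted p of 0.003 (edgeR). The adjustment over genes does not cover the choice of these strains. Over unscaled totals, the host gene Rabgap1l had its lowest strain mean in Drd2+ neurons in PWK/PhJ, 630.1 CPM. Its highest was in WSB/EiJ, 753 CPM. The part of Rabgap1l in the Gpr52 strain differences was not tested.

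For Gpr6 the batch moved the level more than the strain did. In Drd2+ neurons the 8 mice of a batch averaged 61.3 ± 7.75, 55.3 ± 7.05, 99.4 ± 9.67 and 77.8 ± 7.05 CPM in batches 1 to 4 (SD, n = 8). Every mouse of batch 3, from 86.8 to 115 CPM, was above every mouse of batches 1 and 2. Penk, the enkephalin precursor of the same neurons, moved the same way, with 1012, 875, 1799 and 1174 CPM over unscaled totals. Adora2a was also highest in batch 3, with 165, 150, 192 and 168 CPM. Drd2 moved the other way, with 460.1, 476, 352 and 419.8 CPM, and batch 3 was also the shallowest. In oligodendrocytes Gpr6 was lowest in batch 3, at 8.22 ± 6.54 CPM against 13.3 to 17.4 in the other batches. The part of the batch's depth in the Gpr6 level was not tested.

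**Figure D5:**
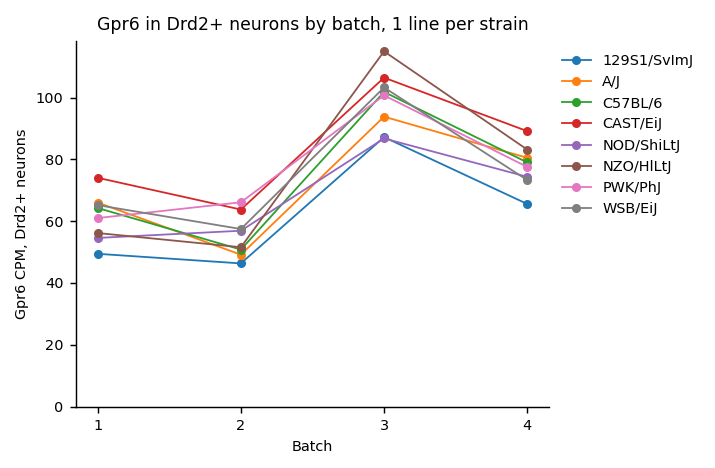
Level of Gpr6 in Drd2+ neurons in CPM by batch, with 1 point per mouse and 1 line per strain. All 8 strains have their highest level in batch 3 (86.8 to 115 CPM), and 129S1/SvImJ is among the lowest lines in each batch.

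Within batches a smaller difference between strains was left for Gpr6. 129S1/SvImJ mice stood at 49.4, 46.3, 87.2 and 65.6 CPM in batches 1 to 4 and CAST/EiJ mice at 74.0, 63.8, 106 and 89.1, so CAST/EiJ was above 129S1/SvImJ in each of the 4 batches. Their means were 62.1 ± 18.7 and 83.3 ± 18.6 CPM (SD, n = 4). With batch in the fit, 129S1/SvImJ was lower than the other 7 by -0.28 ± 0.07 on the log2 scale (SE; adjusted p = 0.00651, edgeR). CAST/EiJ was higher by 0.23 ± 0.07 (adjusted p = 0.011, edgeR). Without batch 1 both calls were lost (adjusted p = 0.063 and 0.104, edgeR), as they were without the batch in the fit (adjusted p = 0.546 and 0.542). That of CAST/EiJ was also lost with lowly counted genes kept (adjusted p = 0.0967). The strain term had an adjusted p of 0.00731, and of 0.913 without the batch in the fit (edgeR). In Drd1+ neurons, where its level was low, Gpr6 ran from 4.20 ± 0.83 CPM in 129S1/SvImJ to 8.14 ± 1.25 in PWK/PhJ (SD, n = 4; strain term adjusted p = 0.0498, edgeR). PWK/PhJ was called higher by 0.52 ± 0.19 on the log2 scale (SE; adjusted p = 0.031, edgeR), kept in 1 of the 4 fits that leave out a batch. Of the Drd2+ neuron markers in those nuclei, Drd2 and Adora2a were also highest in PWK/PhJ: Drd2 stood at 16.7 ± 5.54 CPM and Adora2a at 15.5 ± 1.94, against strain means of 8.70 to 14.3 and 8.51 to 12.0 in the other 7 strains. The summed level of the 5 Drd2+ markers listed was 127 to 186 CPM over the PWK/PhJ mice and 88.0 to 115 CPM over the 129S1/SvImJ mice, with A/J at 189 to 254. The list and Penk were thus highest in A/J, where Penk stood at 193 ± 32.1 CPM against 115 ± 23.4 in PWK/PhJ, while Gpr6 in A/J was 5.82 ± 0.716 CPM (SD, n = 4). None of the 5 was at 0, and the part of these transcripts in the Gpr6 difference was not tested.

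Other orphan receptors and the partners of these receptors in signalling were read from lists drawn up for the purpose. Of 42 other orphan receptors, 27 were tested in Drd1+ neurons and 18 were called for strain (61.7% of all genes were), and 12 of 26 were called in Drd2+ neurons (55.9% of all genes). Of 29 G proteins, adenylyl cyclases, kinases and related partners, 19 of 28 tested were called in Drd1+ and 15 of 28 in Drd2+ neurons, against the same shares of all genes. The median log2 span from the lowest to the highest strain was 1.10 in Drd1+ and 0.71 in Drd2+ neurons over the members, 0.69 and 0.64 over the other orphan receptors, and 0.44 and 0.42 over the partners. Over all genes tested it was 0.65 and 0.64. The members were chosen with earlier results of these data known, and a span also takes in counting noise where counts are few. That of Gpr139 in Drd2+ neurons was 3.10, on 163 counts. The spans are therefore a description and do not set the members apart. Gpr176, an orphan receptor of the circadian centre, was lowest in CAST/EiJ, at 16.2 ± 3.41 CPM in Drd1+ neurons, and highest in C57BL/6, at 49.5 ± 3.71 (SD, n = 4).

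Among the relatives and partners, the constitutively active Gpr3 ran from 1.62 ± 1.39 CPM in NZO/HlLtJ to 10.6 ± 2.73 in PWK/PhJ in Drd1+ neurons (SD, n = 4). Gpr141 was nearly absent from WSB/EiJ, at 0.145 ± 0.17 CPM, and highest in A/J, at 7.62 ± 2.58. Gpr19 ran from 20.7 ± 1.38 CPM in C57BL/6 to 35.8 ± 4.03 in NOD/ShiLtJ. Of the partners, the gamma subunit Gng7, which joins the striatal Golf complex, ran from 361 ± 18.1 CPM in NOD/ShiLtJ to 522 ± 28.9 in PWK/PhJ. Ric8b, a chaperone of Gs-type alpha subunits, ran from 284 ± 25.9 in NZO/HlLtJ to 414 ± 46.6 in PWK/PhJ, and the phospholipase Plcb4 from 2.80 ± 1.13 in C57BL/6 to 9.54 ± 1.78 in CAST/EiJ (SD, n = 4). In Drd2+ neurons the called genes with the largest F also took in Gpr158, from 942 ± 95.4 CPM in NZO/HlLtJ to 1374 ± 102 in CAST/EiJ. The cyclase Adcy9 ran from 188 ± 29.2 in A/J to 274 ± 30.6 in CAST/EiJ, and Adcy1 from 19.3 ± 6.28 in CAST/EiJ to 36.0 ± 2.92 in 129S1/SvImJ (SD, n = 4). All of these passed edgeR's strain term with adjusted p between 2.96e-15 and 0.00147.

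The genes most like each member over the 18 clusters were ranked by Pearson r of log2 CPM among 15711 genes, as a description in which the clusters share libraries and depth. For Gpr6 these were Adora2a (0.93), Penk (0.92) and Rasd2 (0.76), the first 2 being markers of the indirect pathway. For Gpr149 they were 4930598N05Rik (0.92), the metabotropic glutamate receptor Grm4 (0.92) and Gm1604a (0.91). For Gpr83 they were the growth factor Gdnf (0.87), Vstm2l (0.86) and the vesicle protein Sv2c (0.84). For Gpr155 they were Gm13703 (0.90), the receptor Mchr1 (0.83) and Gm32036 (0.83). For Gpr139 they were 9530036O11Rik (0.78), the synaptotagmin Syt2 (0.73) and the collagen Col19a1 (0.71), and for Gpr52 Gm44993 (0.81), Gm38575 (0.80) and Gm39043 (0.80).

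Over the 32 mice, in the projection neuron cluster where the member was higher, other genes came first. In Drd1+ neurons Gpr155 was most like Vmn2r84 (0.90), Vmn2r85 (0.87) and Gm15680 (0.84), of which the first 2 are named as vomeronasal receptors. Gpr139 was most like Rnf180 (0.78), Hs6st3 (0.75) and the cannabinoid receptor Cnr1 (0.74). Gpr83 was most like Nfu1 (0.80), Trim46 (0.79) and Ccno (0.77). In Drd2+ neurons Gpr6 was most like Spcs1 (0.89), Atp6v0c (0.88) and Tmem91 (0.84), Gpr149 like Rasl11b (0.69), Dpp10 (0.68) and Ccdc34 (0.68), and Gpr52 like 4930567K20Rik (0.66), Gm11250 (0.62) and Rhobtb1 (0.62). The 32 mice share strains and batches, so these likenesses follow both.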

How the data were processed

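RNA of nuclei from mouse striatum was read with the 10x Genomics Multiome assay in 4 batches of 8 mice. Per the submitters' processing notes, bcl2fastq 2.20.0.422 and Cell Ranger ARC 2.0.0 were used and the builds named are mm10 and GRCm38; the counting's use of strand is not given in the sources used here. The deposited expression matrices hold raw counts of UMIs per gene and barcode, made by the authors. The authors' deposited table of barcodes holds categories (unit other): Demuxlet strain calls from RNA and ATAC reads, doublet calls and cluster names, all used unchanged and with no further doublet caller. The deposited list of accessible regions (unit other) was used for positions only. Whether its starts count from 0 or from 1 is not stated, so peak ends may be off by 1 base.

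Counts of the nuclei of 1 mouse in 1 cluster were summed to 1 library of at least 10 nuclei. Clusters with at least 3 mice in every strain, 9 of 18, were tested with edgeR 4.0.16 in R 4.3.3 (TMM, filterByExpr, robust quasi-likelihood F test of strain with batch as a covariate, Benjamini-Hochberg over all genes, called at adjusted p under 0.05). DESeq2 1.42.0 was an alternative. Contrasts took each strain against the other 7 and the 28 pairs, and the interaction took Drd1+ and Drd2+ libraries with the mouse as a block. CPM used TMM-scaled totals; log2 values used a prior count of 2. The batch is a pool of nuclei per the labels' protocols; the deviations of 2 mice from their strain means had a median r of 0.129 within a batch and -0.055 between batches in Drd1+ neurons. The mice of a strain are separate animals. The fits were tested on simulated data.

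The members and lists were chosen with earlier results of these data known. Named genes are the 6 members; the 5 called other orphan receptors and the 3 called partners with the largest F per cluster (1 of them is not reported here); and the 3 genes with the highest r to each member, over clusters (genes with at least 10 CPM in some cluster) and over mice. Alternatives were RLE scaling, DESeq2, no expression filter, no batch or mouse block, each batch left out, libraries of at least 30 nuclei, nuclei of 1000 UMIs or more, unscaled totals, sums over mice and thinning. Leaving out 4 single mice was chosen after seeing the data.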

Additional observations from a re-analysis of the deposited data

Results flagged for a closer look

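Within 120 groups of 4 mice (a member, a cluster and a strain), 5 held a mouse whose gap to its neighbour was wide for the range of the group by Dixon's criterion, which chance gives in about 1 group in 20. Gpr139 in Drd1+ neurons was 22.6 CPM in the batch 4 mouse of NZO/HlLtJ and 3.54 to 5.96 CPM in the other 3. Gpr149 in the batch 4 mouse of 129S1/SvImJ was 87.3 CPM in Drd1+ neurons, against 33.2 to 40.5 in the other 3, and 144.8 CPM in Drd2+ neurons, against 65.5 to 77.6. Gpr52 in Drd2+ neurons was 16.1 CPM in the batch 4 mouse of NOD/ShiLtJ and 19.0 to 19.5 in the other 3. Gpr155 in Drd1+ neuron_2 was 71.0 CPM in the batch 2 mouse of C57BL/6 and 99.8 to 103 in the other 3. The strain effect differed between Drd1+ and Drd2+ neurons for Gpr149 (adjusted p = 1.48e-13) and Gpr139 (adjusted p = 0.00856) by edgeR's interaction test.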

How the results depend on the processing

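The strain terms of Gpr149 and Gpr155 in Drd1+ and Drd2+ neurons stayed called in all 14 other settings run. So did those of Gpr83 in Drd1+ neurons and Gpr52 in Drd2+ neurons. That of Gpr139 in Drd2+ neurons was called in all 12 settings that tested it. That of Gpr6 in Drd1+ neurons was lost in 7 of 14 (adjusted p up to 0.215) and in Drd2+ neurons in 3 of 14 (up to 0.913), Gpr139 in Drd1+ neurons in 3 of 14 (up to 0.179) and Gpr83 in Drd2+ neurons in 1 of 14 (0.0536); in Drd1+ neuron_2, Gpr149 was lost in 5 of 14 and Gpr155 in 4 of 14. No direction reversed.

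The pairing by batch comes from the labels. Without the replicate block, members called by strain in Drd1+ neuron_2 fell from 2 to 1, strain contrasts in Drd2+ neurons from 14 to 8, pairs of strains in Drd2+ neurons from 52 to 30 and interaction calls from 2 to 0; Gpr6 in Drd2+ neurons had an adjusted p of 0.913. The block otherwise kept these counts within 1.5 times.

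With 1 batch, or 1 of the 4 single mice, left out at a time, members called by strain numbered 3 to 5 in Drd1+ neurons, 4 to 6 in Drd2+ neurons and 1 to 2 in Drd1+ neuron_2; strain contrasts 7 to 16 in Drd1+ and 6 to 14 in Drd2+ neurons; pairs 31 to 47 in Drd1+ and 20 to 52 in Drd2+ neurons; interaction calls 1 to 3. The lowest of each range came with a batch left out. With no expression filter, 1 member was called in Nxph1+ interneurons, and Drd1+ neurons gave 23 contrasts and 67 pairs. In Drd1+ neuron_2, DESeq2 called 1 member, libraries of at least 30 nuclei 0, and leaving out the batch 4 mouse of NOD/ShiLtJ 1. The causes were not tested. Shares over all genes are those of the first fit, so none of the counts in this section is read against them.

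Depth limits shares of nuclei with a UMI. At 1000 UMIs per nucleus they were 6.97% for Gpr6, 2.40% for Gpr52 and 7.46% for Gpr149 in Drd2+ neurons, and 1.78% for Gpr139, 3.30% for Gpr83 and 15.2% for Gpr155 in Drd1+ neurons.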
